A study of Schizosaccharomyces pombe with 4 samples.

Results

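The genes described here, 5 of the 5133 that the deposited tables list for fission yeast (Schizosaccharomyces pombe), are the stress-related zinc-finger genes rsv1 (SPBP4H10.09) and rsv2 (SPBC1105.14), and the eIF2α kinase genes hri1 (SPAC20G4.03c), hri2 (SPAC222.07c) and gcn2 (SPBC36B7.09). They were taken by their identifiers, with their Y41F and WT levels already known, so their values are a description and none of them is given a test. Total RNA of log-phase cells was sequenced, after growth at 30 °C in the rich medium YEA. The 4 libraries are 2 from Y41F cells, of strains SPBB297 and SPBB298, and 2 from wild type (WT) cells, both of strain KOR3006. Which protein carries Y41F is not in the labels. From knowledge of the study it is read here as a tyrosine-to-phenylalanine substitution in histone H3, and any other allele of these strains is not stated. The WT libraries are not stated to be separate cultures, and their spread may be technical, while that within Y41F includes any difference between its strains.

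When a cell is stressed, eIF2α kinases phosphorylate the α subunit of translation initiation factor eIF2. Phosphorylated eIF2 blocks its own exchange factor, eIF2B, so that general protein synthesis slows while a small set of stress-related mRNAs is translated better. Gcn2 is the kinase known across eukaryotes for sensing uncharged tRNA during amino acid shortage, and Hri1 and Hri2 are relatives of the mammalian haem-regulated inhibitor. Rsv1 and Rsv2 are C2H2 zinc-finger proteins that bind DNA. Fission yeast needs Rsv1 to survive in stationary phase, its gene is known to be held down by glucose through protein kinase A, and Rsv2 is known for stress genes switched on during spore formation.

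The library totals were 23616464 and 22773955 expected counts in Y41F and 22260430 and 20845572 in WT. An expected count is RSEM's estimate of the reads of a gene. Across the transcriptome, edgeR's quasi-likelihood test called 1 of 5076 tested genes (0.0197%) at an adjusted p under 0.05. That gene was yhb1, so 1 was higher and 0 were lower in Y41F, with 249 higher and 91 lower at an unadjusted p under 0.05. DESeq2 called 62 higher and 6 lower. The edgeR count leaned on single libraries, with 60 higher and 5 lower without Y41F library 1, 90 higher and 107 lower without Y41F library 2, and 0 in either direction without WT library 1 or without WT library 2 (168 and 262 genes at an unadjusted p under 0.05). None of the 5 genes described was the one called, and nothing is read from that, since they were chosen on this contrast. The 5 genes all passed the filter on low counts.

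Of the pair of Rsv genes, rsv2 was the abundant one and stood higher in both Y41F libraries. Its expected counts were 4297 and 4176 in Y41F libraries 1 and 2, against 1954 and 2229 in WT libraries 1 and 2. In FPKM, the deposited value scaled to coding length and sequencing depth, rsv2 had 93.24 and 94.03 in Y41F and 44.97 and 54.83 in WT. The groups did not overlap, and the Y41F libraries were far closer to each other than the WT libraries were. The log2 fold change of rsv2 was 0.86 ± 0.10 (SE), or 1.82-fold. Between the nearest libraries of the groups, Y41F 1 and WT 2, the log2 difference in CPM, the count per library size after TMM scaling, was still 0.76. With each library left out in turn the fold change of rsv2 lay between 0.77 and 0.97 on the log2 scale.

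The other Rsv gene, rsv1, was among the scarcest genes of the series and stood high in 1 library. Its expected counts were 464 and 110 in Y41F libraries 1 and 2, against 81 and 85 in WT libraries 1 and 2. The exact 95% Poisson intervals, which cover counting error only, were 423 to 508 and 90.4 to 133 counts in Y41F, and 64.3 to 101 and 67.9 to 105 in WT. Thus Y41F library 1 lay apart from the other 3 libraries, while the intervals of Y41F library 2 and of both WT libraries met. In FPKM, rsv1 had 15.11 and 3.72 in Y41F and 2.80 and 3.14 in WT. The fold change over all 4 libraries was 1.62 ± 0.64 on the log2 scale. Without Y41F library 1 it was 0.28 ± 0.34, and without Y41F library 2 it was 2.31 ± 0.23. The mean of the Y41F group, 9.41 ± 8.05 FPKM (SD, n = 2), therefore stands for neither of its libraries. The Y41F libraries come from different strains, so strain, culture and library cannot be told apart in this difference.

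Within a library, rsv2 always exceeded rsv1, but by unequal amounts. The ratio of rsv2 to rsv1 in FPKM was 6.17 and 25.3 in Y41F libraries 1 and 2 and 16.1 and 17.5 in WT. The Y41F values enclosed the WT values, so the groups overlapped. The difference between the log2 fold changes of the genes, rsv2 minus rsv1, was -0.76 with all libraries. It was 0.59 without Y41F library 1 and -1.44 without Y41F library 2, so which paralog differed more between Y41F and WT turned on that library.

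**Figure D1:**
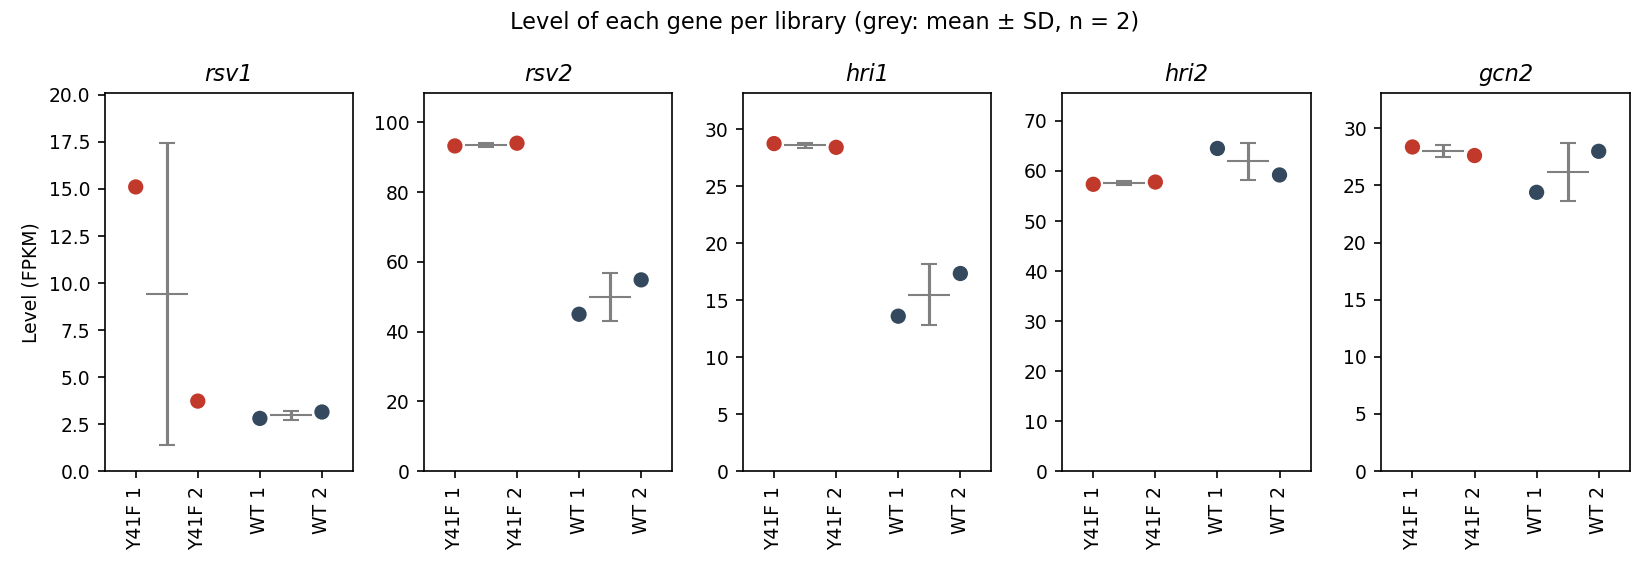
Level of each of the 5 genes in FPKM (vertical axes, each from 0) in every library, Y41F in red and WT in dark blue, with the mean ± SD of the 2 libraries of a group in grey. The levels of rsv2 and hri1 are higher in both Y41F libraries than in both WT libraries, rsv1 is high in Y41F library 1 alone, hri2 is slightly lower in Y41F and the groups of gcn2 overlap.

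Among the kinases, hri1 was the least abundant in WT and was higher in both Y41F libraries. Its expected counts were 1467 and 1398 in Y41F libraries 1 and 2 and 654 and 781 in WT libraries 1 and 2, which is 28.76 and 28.43 FPKM in Y41F and 13.60 and 17.35 FPKM in WT. The groups did not overlap, and the nearest libraries differed by 0.70 in log2 CPM. The log2 fold change of hri1 was 0.84 ± 0.12 (SE), or 1.79-fold, and lay between 0.72 and 0.99 with each library left out in turn.

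Its paralog hri2 had the highest FPKM of the 3 kinase genes in every library. It had 2651 and 2575 expected counts in Y41F and 2812 and 2415 in WT, or 57.34 and 57.79 FPKM in Y41F and 64.51 and 59.21 FPKM in WT. Both Y41F values lay below both WT values, but WT library 2 was much nearer to Y41F than to WT library 1. The log2 fold change of hri2 was -0.15 ± 0.10, and it was -0.05 without WT library 1, so the size of this small difference leaned on that library.

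The third kinase gene, gcn2, showed no separation of the groups. Its expected counts were 3268 and 3067 in Y41F and 2651 and 2845 in WT, and its FPKM values were 28.37 and 27.62 in Y41F and 24.40 and 27.99 in WT. The value of WT library 2 fell between those of Y41F. The log2 fold change of gcn2 was 0.05 ± 0.08, and it was -0.01 without WT library 1.

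The make-up of the kinase transcripts was therefore not the same in the Y41F and WT libraries. The ratio of hri1 to hri2 in FPKM was 0.502 and 0.492 in Y41F and 0.211 and 0.293 in WT, a difference of 1.00 on the log2 scale. The ratio of hri1 to gcn2 was 1.01 and 1.03 in Y41F and 0.557 and 0.620 in WT, a difference of 0.80. Neither ratio overlapped between the groups, and each varied more between the WT libraries than between the Y41F libraries. The ratio of hri2 to gcn2 was 2.02 and 2.09 in Y41F and 2.64 and 2.12 in WT, also without overlap, though WT library 2 was close to Y41F. Nothing is read from the lack of overlap, since 37.2% of single genes also had none and these genes were chosen on this contrast. As a share of the summed FPKM of the 3 kinases, hri1 made up 25.1% and 25.0% in Y41F and 13.3% and 16.6% in WT. The share of hri2 was 50.1% and 50.8% in Y41F and 62.9% and 56.6% in WT. The sum itself was 114.47 and 113.84 FPKM in Y41F and 102.51 and 104.55 FPKM in WT. These are transcript levels, and neither kinase protein nor eIF2α phosphorylation was measured here.

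**Figure D2:**
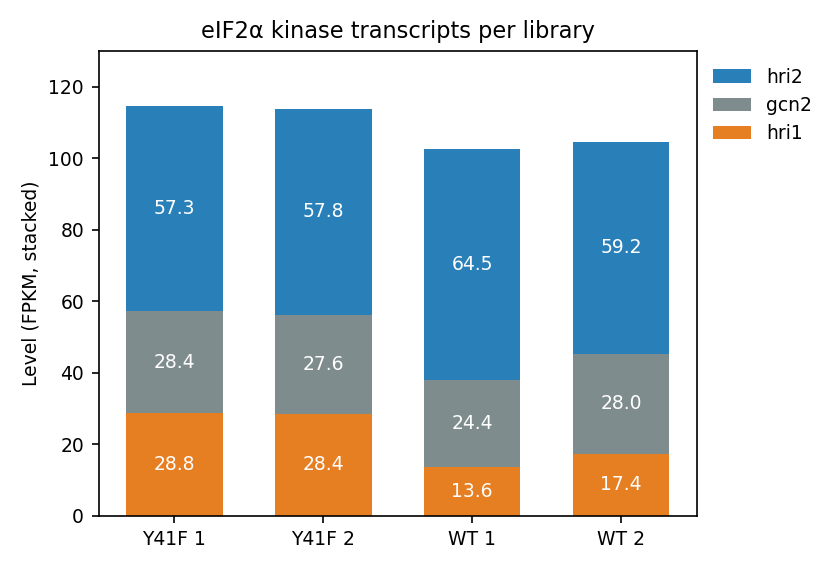
Summed level of the eIF2α kinase transcripts in FPKM (vertical axis, stacked) per library, split into hri2 (blue), gcn2 (grey) and hri1 (orange). The hri1 part is 28.76 and 28.43 in the Y41F libraries and 13.60 and 17.35 in the WT libraries, while the gcn2 part stays between 24.40 and 28.37 in all 4.

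The order of the 5 genes by level differed between the groups. In Y41F, rsv2 came first at 93.6 ± 0.559 FPKM, followed by hri2 at 57.6 ± 0.318, hri1 at 28.6 ± 0.233, gcn2 at 28.0 ± 0.530 and rsv1 at 9.41 ± 8.05 (mean ± SD, n = 2). In WT, hri2 came first at 61.9 ± 3.75 FPKM, followed by rsv2 at 49.9 ± 6.97, gcn2 at 26.2 ± 2.54, hri1 at 15.5 ± 2.65 and rsv1 at 2.97 ± 0.240. In Y41F, hri1 and gcn2 differed by 0.60 FPKM, less than the sum of their SDs, 0.764. The other neighbours in each order differed by more than the sum of their SDs, most narrowly hri2 and rsv2 in WT, which were 12.0 FPKM apart against a sum of 10.7. Among all listed genes, rsv2 stood above 67.9% in Y41F and above 45.1% in WT, and hri1 above 21.5% in Y41F and 11.2% in WT. For gcn2 these shares were 20.8% in Y41F and 21.3% in WT, and for rsv1 they were 5.61% in Y41F and 2.75% in WT.

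All the genes but rsv1 gave nearly equal values in the Y41F libraries although these come from different strains. The log2 ratio of library 2 to library 1 in CPM within Y41F was 0.00 for rsv2, -0.02 for hri1, 0.00 for hri2 and -0.05 for gcn2, against -2.03 for rsv1. Within WT it was 0.21 for rsv2, 0.28 for hri1, -0.20 for hri2, 0.12 for gcn2 and 0.09 for rsv1. Over all tested genes the median size of this ratio was 0.13 in Y41F and 0.11 in WT. Thus rsv2, hri1, hri2 and gcn2 varied more than the median gene between the WT libraries and less than it between the Y41F libraries. Over the transcriptome, 37.2% of tested genes had no overlap between Y41F and WT libraries, with 19.2% higher and 18.0% lower in Y41F. Of the 5 genes, rsv1, rsv2 and hri1 lay wholly higher and hri2 wholly lower, and nothing is read from these counts, since the genes were chosen on this contrast.

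**Figure D3:**
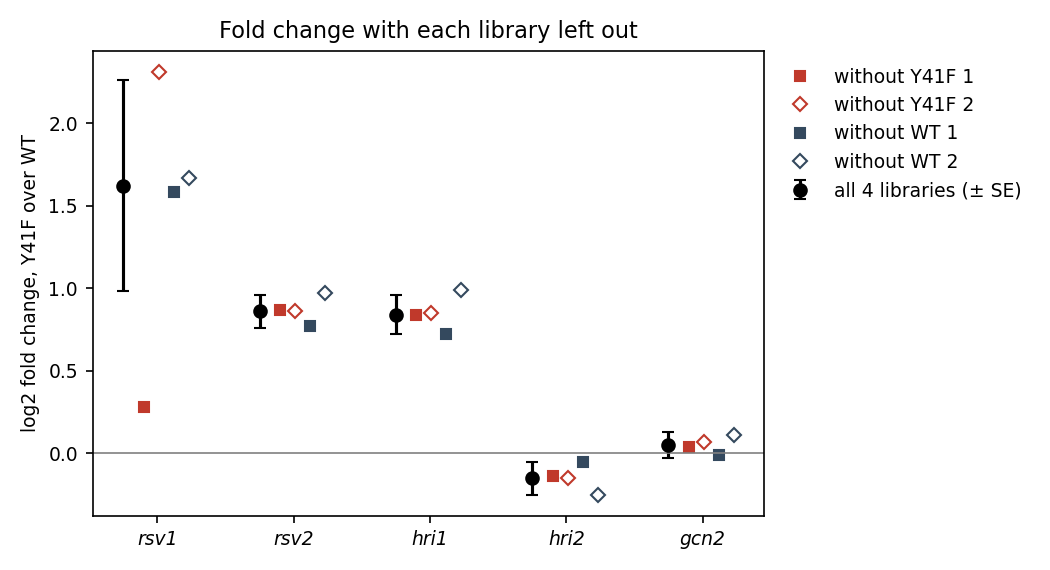
Log2 fold change of Y41F over WT (vertical axis) for each gene with all 4 libraries (black, ± SE) and with each library left out (red for Y41F, dark blue for WT). Values of rsv2 stay between 0.77 and 0.97 and those of hri1 between 0.72 and 0.99, whereas rsv1 ranges from 0.28 to 2.31.

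To see which transcripts followed each gene most closely, the log2 CPM of every gene was centred on its own mean, and the root mean square (RMS) difference from each of the 5 genes was taken over the 4 libraries. The comparison ran over 4861 genes that averaged 5 CPM or more. The gene nearest to rsv2 was hri1, and the gene nearest to hri1 was rsv2, at an RMS difference of 0.027. Next to rsv2 came ght3, of the hexose transporter family, at 0.039, and SPBC15C4.06c at 0.049. Next to hri1 came ght3 and SPCC794.15, both at 0.049. In CPM, ght3 had 8.48 and 8.92 in Y41F and 4.64 and 5.32 in WT. Within an RMS difference of 0.1 there were 11 genes for rsv2 and 9 for hri1. With 4 libraries this is a description only, and rsv2 and hri1 were both chosen as higher in Y41F.

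The nearest genes to rsv1 lay farther off and shared its high value in Y41F library 1. They were wwm3 at an RMS difference of 0.208, the glycerol dehydrogenase gene gld1 at 0.287 and mug114 at 0.330. The gene wwm3 had 54.1 and 19.4 CPM in Y41F and 12.4 and 15.2 CPM in WT. For gld1 the values were 72.9 and 14.4 CPM in Y41F and 8.86 and 9.45 CPM in WT. No gene came within 0.1 of rsv1. By contrast, 1375 genes came within 0.1 of hri2, nearest among them etd1, anc1 and tad2, and 2131 came within 0.1 of gcn2, nearest among them ubr1, wdr70 and psm1, so many genes share these almost flat profiles.

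**Figure D4:**
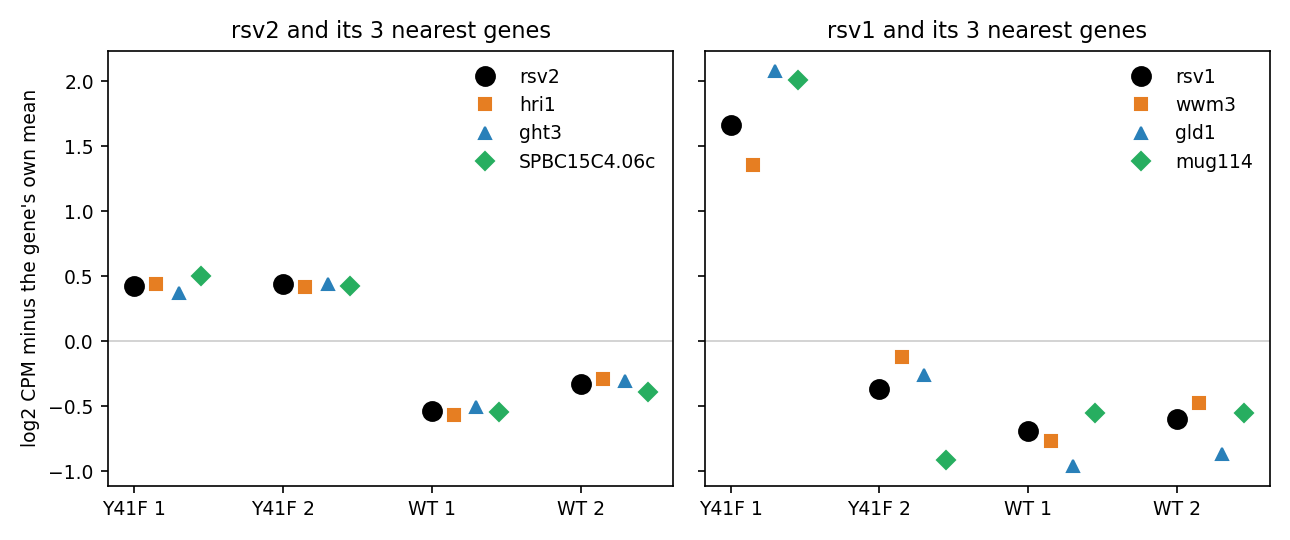
Log2 CPM minus the gene's own mean over the 4 libraries (vertical axis) per library, for rsv2 with its 3 nearest genes (left) and rsv1 with its 3 nearest genes (right), with markers set side by side within a library. The 4 genes on the left nearly coincide in every library, and the 4 on the right are high in Y41F library 1 only.

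Genes beside the 5 were compared to see whether whole stretches differed. The genes next to rsv2 did not share its difference. Upstream of it, the histone H4 gene hhf3 had 141 and 114 CPM in Y41F and 116 and 127 CPM in WT, with a log2 fold change of 0.07 ± 0.12, and SPBC1105.13c was below 3 CPM in every library. Downstream, htd2, for a fatty acid synthesis enzyme of mitochondria, had -0.16 ± 0.12 and spc1 (SPBC887.22) had -0.08 ± 0.14. Upstream of hri1, the checkpoint gene hus1 had -0.02 ± 0.10 and fmp40 had 0.03 ± 0.14. Downstream of hri1, the formin gene fus1, which acts in cell fusion during mating, had 37.5 and 40.2 CPM in Y41F and 30.0 and 30.0 CPM in WT, a log2 fold change of 0.37 ± 0.10, while caf16 beyond it had -0.17 ± 0.09.

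Beside rsv1, the next gene downstream, rbd3, for a mitochondrial rhomboid protease, stood higher in Y41F. It had 41.6 and 32.1 CPM in Y41F and 21.9 and 21.9 CPM in WT, a log2 fold change of 0.75 ± 0.15, and its log2 ratio of library 2 to library 1 within Y41F was -0.37, against -2.03 for rsv1. The gene after it, lcf2, had -0.16 ± 0.09, and upstream of rsv1, SPBP4H10.07 had 0.09 ± 0.10 and the respiratory chain gene qcr10 -0.14 ± 0.09. The 4 neighbours of gcn2, which are tlg1, ccp1, pgs1 and toc1, had between -0.08 and 0.15. Those of hri2 had 0.05 or less, the lowest being the ribosome biogenesis gene mak16 at -0.41 ± 0.21. The groups of mak16 overlapped, with 94.5 and 145 CPM in Y41F and 173 and 144 CPM in WT.

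In the ASM294v3 annotation, rsv1 lies wholly inside the antisense RNA SPNCRNA.1560, which also overlaps rbd3. Antisense RNAs overlap parts of the other 4 genes too, and the end of rsv2 overlaps htd2 while hri2 overlaps mak16, each on the opposite strand. The sources used here do not state a strand setting for the counting. Whether reads of a gene were kept apart from those of an overlapping partner is therefore not known. The antisense RNAs had no values of their own in the analysis.

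The genes for eIF2, of which the kinases phosphorylate the α subunit only, and for its exchange factor eIF2B showed only small differences. Of the 8 genes for subunits of eIF2 and eIF2B, edgeR, DESeq2 and limma on log2(FPKM + 1) each called 0. Over all genes edgeR called 1 higher and 0 lower, DESeq2 62 and 6, and limma 3 and 0. With so few called, 0 of 8 does not show that these genes were unchanged. At an unadjusted edgeR p under 0.05 there were 0 of the 8, where 4.91% of all tested genes were higher and 1.79% lower. The median log2 fold change of the 8 was -0.10, against 0.00 over all tested genes, with 7 below 0 and 1 above it. The eIF2 subunit gene tif213, lowest in fold change and first of the list in CPM averaged over the 4 libraries, had 724 and 668 CPM in Y41F and 824 and 765 CPM in WT, or -0.19 ± 0.10. The highest fold change, 0.04 ± 0.11, was that of tif212, for another eIF2 subunit, which exceeded tif213 in FPKM in every library. In the lists that follow, too, the most abundant gene is the one with the highest mean CPM over the 4 libraries, which is not scaled to length. All these lists were chosen with earlier results of these data known, so nothing is read from how many of their genes differed.

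Of 8 genes linked to Gcn2 or to the output of eIF2α phosphorylation, the same 3 tests again called 0, which decides as little here. At an unadjusted edgeR p under 0.05 there were 0 of the 8, where 4.91% of all tested genes were higher and 1.79% lower. The median log2 fold change of the 8 was -0.11. The lowest was fil1, for a transcription factor that activates amino acid synthesis genes downstream of Gcn2. It had 88.0 and 88.6 CPM in Y41F and 113 and 96.3 CPM in WT, or -0.25 ± 0.10. The most abundant, cpc2, for the ribosome-bound RACK1 protein, had -0.14 ± 0.14, and the highest, the initiation factor gene sui1, had 0.06 ± 0.08.

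The 39 amino acid synthesis genes tested had a median log2 fold change of -0.07, with 35 below 0 and 4 above it, where 51.3% of all tested genes were below 0. Without WT library 1 the median was 0.01. Groups did not overlap for 0 genes with Y41F higher and for 10 with Y41F lower (25.6%), where 19.2% of all tested genes were wholly higher and 18.0% wholly lower. The 3 tests called 0, which decides little. Over all genes edgeR called 1 higher and 0 lower, DESeq2 62 and 6, and limma 3 and 0. At an unadjusted edgeR p under 0.05, 1 of the 39 was lower and 0 were higher. Of all tested genes, 1.79% were lower and 4.91% higher at that p. The lowest was arg12, an arginine pathway gene, at -0.28 ± 0.11, the highest ser3, a serine pathway gene, at 0.14 ± 0.13, and the most abundant ilv5, of branched-chain amino acid synthesis, at -0.09 ± 0.13.

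Among 8 other C2H2 zinc-finger regulators the median log2 fold change was 0.03, with 5 above 0 and 3 below it. The highest fold change was that of prz1, the transcription factor of the calcium-calcineurin pathway, with 278 and 228 CPM in Y41F and 131 and 153 CPM in WT, or 0.84 ± 0.14. It also had the highest mean CPM over the 4 libraries, though in WT hsr1 stood above it in FPKM, with 74.7 against 67.0. Its fold change was about that of rsv2 and hri1, and the groups did not overlap. The lowest was hsr1, with 104 and 98.1 CPM in Y41F and 126 and 144 CPM in WT, or -0.42 ± 0.10. By edgeR 0 of the 8 were called, against 1 of all 5076 tested genes. At an unadjusted p under 0.05, prz1 was higher and hsr1 lower, where 4.91% of all tested genes were higher and 1.79% lower. DESeq2 called prz1 only, against 62 higher and 6 lower over all genes, and limma called 0, against 3 higher and 0 lower. The glucose-linked factors rst2 and scr1, picked with their values in view, had 0.01 ± 0.08 and 0.05 ± 0.23.

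Of 11 genes of the glucose and protein kinase A pathway, 10 had a log2 fold change above 0 and 1 below it, with a median of 0.24. The list holds both the kinase gene and that of its regulatory subunit, so this count gives no direction of pathway activity. Over all tested genes 48.7% were above 0. Groups did not overlap, with Y41F higher, for 6 of the 11 (54.5%), against 19.2% of all tested genes. The list was chosen with earlier results of these data known, so nothing is read from these shares. None was called by edgeR, DESeq2 or limma, which decides little. Over all genes edgeR called 1 higher and 0 lower, DESeq2 62 and 6, and limma 3 and 0. At an unadjusted edgeR p under 0.05, 3 of the 11 were higher and 0 lower. Of all tested genes, 4.91% were higher and 1.79% lower at that p. The highest was cgs1, for the regulatory subunit of the kinase, at 0.68 ± 0.49. It had 8.19 and 3.02 CPM in Y41F and 3.84 and 3.13 CPM in WT, high in Y41F library 1 as rsv1 was. The kinase gene pka1, picked with its values in view, had 0.31 ± 0.12, the most abundant member, hsp90, had 0.00 ± 0.17, and the lowest, gpa2, had -0.01 ± 0.15.

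The 17 genes of the Sty1-Atf1 stress pathway had a median log2 fold change of 0.00, with 9 above 0 and 8 below it. The highest was pyp2, for a phosphatase that switches off the kinase Sty1, with 75.9 and 49.9 CPM in Y41F and 31.5 and 32.5 CPM in WT, or 0.98 ± 0.21. The lowest was the kinase gene wis1 at -0.13 ± 0.12, and the most abundant was prr1, for a response regulator, at 0.16 ± 0.10. By edgeR 0 of the 17 were called, against 1 of all 5076 tested genes. At an unadjusted p under 0.05 pyp2 alone passed, where 4.91% of all tested genes were higher and 1.79% lower. DESeq2 called pyp2 only, against 62 higher and 6 lower over all genes, and limma called 0, against 3 higher and 0 lower.

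**Figure D5:**
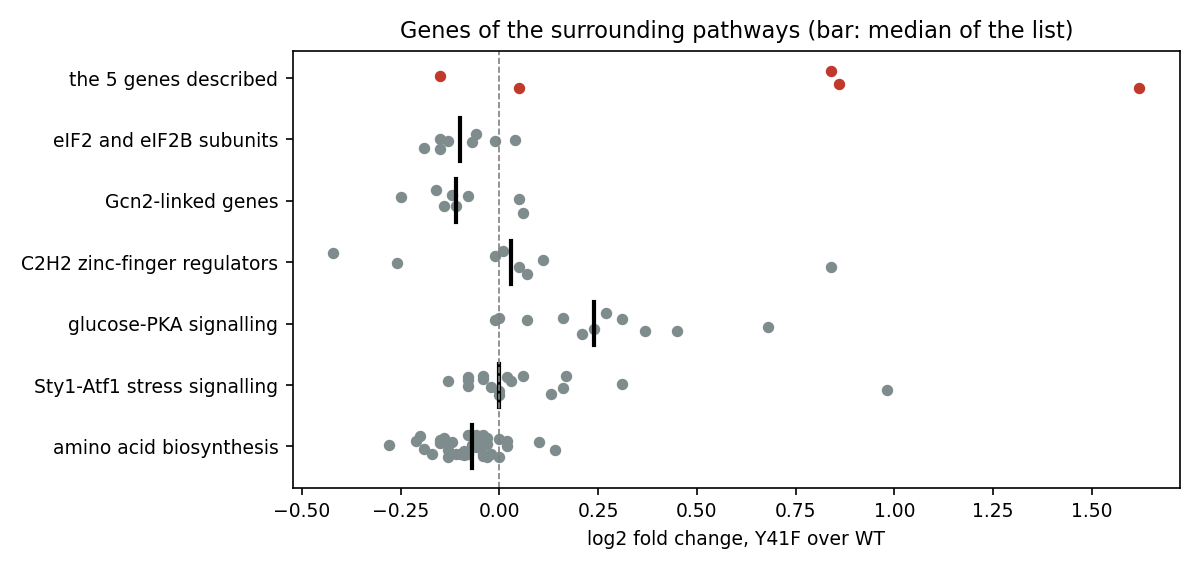
Log2 fold change of Y41F over WT (horizontal axis) for the 5 genes described (red) and for each gene of the 6 surrounding lists (grey), with the median of each list as a black bar. The list medians lie between -0.11 and 0.24, and prz1 at 0.84 and pyp2 at 0.98 are the grey points farthest to the right.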

How the data were processed

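Per the file headers, the deposited table of each library gives every gene an expected count and an FPKM value. Tools named in the submitters' processing notes, without versions or roles, are BWA, Bowtie and RSEM, and the build is ASM294v2. All deposited lengths are multiples of 3, so FPKM is per coding length, and a gene missing from a table was taken as 0. The ASM294v3 annotation gave symbols, synonyms, neighbours, strands and overlaps, and no levels (5100 of 5133 identifiers matched). Expected counts were rounded and tested with edgeR 4.0.16 (R 4.3.3; quasi-likelihood, TMM, default filter, which removed 57 genes), with Benjamini-Hochberg adjustment over 5076 genes. SE is the fold change divided by the square root of its F statistic. The test was checked on simulated data. DESeq2 1.42.0, limma 3.58.1 on log2(FPKM + 1), library-size scaling, no filter, the replicate number as a block and leaving out each library were alternatives. Libraries of a group were no duplicates (chi-square per degree of freedom 63.6 in Y41F, 43.3 in WT, near 1 for sampling noise). The genes and lists were chosen with earlier results of these data known. Named in each list are the gene with the highest mean CPM, the highest and the lowest in fold change, with 2 listed neighbours on each side of each of the 5 genes and their 3 nearest genes by profile. Aro1802, aro3 and aro4 matched no gene, and git10 is hsp90.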

Additional observations from a re-analysis of the deposited data

How the results depend on the processing

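The fold changes of rsv1, rsv2, hri1, hri2 and gcn2 moved by less than their SE under DESeq2, library-size scaling, no filter, log2(FPKM + 1) and the replicate block. With each library left out in turn, the log2 fold change lay between 0.28 and 2.31 for rsv1, 0.77 and 0.97 for rsv2, 0.72 and 0.99 for hri1, -0.25 and -0.05 for hri2, and -0.01 and 0.11 for gcn2. The difference rsv2 minus rsv1 lay between -1.44 and 0.59, hri1 minus hri2 between 0.76 and 1.24, and hri1 minus gcn2 between 0.72 and 0.87. Genes called numbered 1 higher and 0 lower with edgeR, 62 and 6 with DESeq2, 3 and 0 on log2(FPKM + 1), 77 and 10 with the replicate block, and from 0 to 90 higher and 0 to 107 lower with 1 library left out; the cause was not tested. The arm left with 1 library was then assumed to vary like the other. Of 54 list medians under the alternatives, 53 moved by less than the median SE of the list, and 1 by more, that of the Gcn2-linked genes without Y41F library 2 (-0.01). Same-numbered libraries deviated together (r = 0.446 across genes), but the labels give no pairing and there are only 2 pairs. With the replicate block the fold change was 1.37 for rsv1, 0.87 for rsv2, 0.85 for hri1, -0.15 for hri2 and 0.05 for gcn2, and prz1 and pyp2 were called. At 81 to 110 counts in 3 libraries, rsv1 is the most limited by depth of the 5 genes.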
